A study of Mus musculus with 18 samples.

Results

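The genes described here encode the machinery that copies DNA, followed while mouse fibroblasts were reprogrammed to induced pluripotent stem cells (iPSC). A list of 39 replication genes was matched by RefSeq accession to the probe sets of the array table, and the probe set with the highest mean stood for the gene. This gave 38 genes of the 20233 measured. Pcna, the sliding clamp of the polymerases, had no matching probe set and was not analysed here. The listing rule uses what the genes encode, but the list was drawn up with earlier results of these data known. Secondary mouse embryonic fibroblasts with an Oct4-GFP reporter and a Rosa26-M2rtTA transactivator came from embryos at embryonic day 13.5 that were made from iPSC by tetraploid complementation, and were used at passage 4. The reporter and the transactivator were shared by all groups. The day 0 cells were sampled before induction, in fibroblast medium. Cells of days 1, 3, 5, 7, 11 and 15 grew in embryonic stem cell medium with 1 µg/ml doxycycline, which switches on Oct4, Sox2, Klf4 and c-Myc, and 50 µg/ml vitamin C. Day 18 cells were those left 3 days after both additives were removed. The iPSC were 1 established line in medium with inhibitors of Gsk3 and Mek on feeder cells or without them, which the labels leave unstated for these arrays. Each of the 9 groups had 2 arrays. A difference from day 0 thus carries medium, vitamin C and factors at once. Nothing in the labels says that the 2 arrays of a group came from separate cultures, so the spread behind each p-value is that of these arrays and may be technical.

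DNA replication starts at origins marked by the origin recognition complex. There Cdc6 and Cdt1 load the Mcm2 to Mcm7 ring in G1 phase, and geminin, the product of Gmnn, holds Cdt1 back after S phase has begun. The kinase Cdc7 with its activator Dbf4, together with Cdc45, the Gins complex and Mcm10, turns the loaded ring into a moving helicase. Polymerase alpha with primase then makes the primers, and the polymerases delta and epsilon extend them. Most of these genes are transcribed around the G1 to S transition under E2F factors. Mouse pluripotent cells are known for a short G1 phase and a large share of cells in S phase. In bulk RNA, more cells in S phase and more RNA per cell cannot be told apart.

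E2F factors bind sites with the core letters TTTCCCGC, TTTGGCGC, TTTCGCGC or TTTGCCGC, so the promoters of the members were read for them. RefSeq promoter windows of GRCm38.p6, from 250 bases before to 50 bases after a start, were at hand for 30 of the 38 members. At least 1 of these 4 strings, on either strand, was present for 13 of the 30 genes, which is 43.3%. The share was 3.48% of the 15703 measured genes with a window and 2.26% of all 32851 windows. The windows of the members were richer in CG dinucleotides, with a median of 22 against 15 for the windows of measured genes, and each of the 4 strings contains at least 1 CG. To show where the letters stand, 30 bases around them follow for each of the 13 genes, 5′ to 3′ on the strand of the gene, with the matching letters in capitals.
Mcm3, chr1:20820275-20820304, minus strand: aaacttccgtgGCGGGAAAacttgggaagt
Mcm6, chr1:128359793-128359822, minus strand: gtatgctTTTGGCGCGAAAagtgcgtgcgg
Mcm8, chr2:132816161-132816190, plus strand: gcagaagcgcgtcatagacGCGCCAAAaaa
Orc1, chr4:108579416-108579445, plus strand: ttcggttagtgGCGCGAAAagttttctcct
Mcm7, chr5:138171849-138171878, minus strand: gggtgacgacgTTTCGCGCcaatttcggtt
Rfc3, chr5:151651190-151651219, minus strand: cTTTCGCGCtcGCGGGAAAactctactgtc
Lig1, chr7:13278841-13278870, plus strand: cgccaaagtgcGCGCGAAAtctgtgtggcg
Pold1, chr7:44548766-44548795, minus strand: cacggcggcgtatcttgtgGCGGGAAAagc
Mcm5, chr8:75109349-75109378, plus strand: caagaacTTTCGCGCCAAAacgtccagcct
Gins3, chr8:95633507-95633536, plus strand: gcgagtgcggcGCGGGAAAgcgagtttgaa
Cdt1, chr8:122568035-122568064, plus strand: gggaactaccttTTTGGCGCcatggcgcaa
Cdc6, chr11:98908002-98908031, plus strand: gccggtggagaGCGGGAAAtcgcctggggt
Pola1, chrX:93632275-93632304, minus strand: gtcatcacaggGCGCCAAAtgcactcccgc
In the windows of Mcm5 and Mcm6 a match on each strand overlapped the other by 4 bases, and in that of Rfc3 a match on each strand lay with 2 bases between them. Of the 19 matches, 12 began within 60 bases of the start. The other 17 genes had none of these letters in their windows, and they include Mcm10, whose rise on day 1 was the largest of the members. Its window is shown beside that of Orc1, which holds 1 match. The last 7 letters of the Mcm10 window are the first 7 of TTTGGCGC, and the window stops there, so whether a match crosses its edge was not read.
Mcm10, chr2:5012742-5013041, minus strand: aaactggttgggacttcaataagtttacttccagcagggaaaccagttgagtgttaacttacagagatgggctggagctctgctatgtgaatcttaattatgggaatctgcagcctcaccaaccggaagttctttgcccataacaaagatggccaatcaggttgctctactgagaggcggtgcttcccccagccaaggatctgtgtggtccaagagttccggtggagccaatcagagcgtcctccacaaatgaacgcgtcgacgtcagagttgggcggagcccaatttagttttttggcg
Orc1, chr4:108579204-108579503, plus strand: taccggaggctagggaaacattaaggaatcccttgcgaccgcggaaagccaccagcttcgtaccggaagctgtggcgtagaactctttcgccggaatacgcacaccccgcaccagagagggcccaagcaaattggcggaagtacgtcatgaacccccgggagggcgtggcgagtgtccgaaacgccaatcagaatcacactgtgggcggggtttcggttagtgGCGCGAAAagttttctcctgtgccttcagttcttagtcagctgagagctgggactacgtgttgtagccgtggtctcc
The letters CCAAT, on either strand, were in the windows of 19 of the 30 members (63.3%) and of 42.0% of measured genes. The E-box letters CACGTG, which Myc with Max can bind, were in the windows of 6 of the 30 members against 9.50% of measured genes, and the GC box letters GGGCGG in 21 (70.0%) against 53.1%. A match describes the letters and does not show binding. The median log2 difference between day 1 and day 0 was 1.62 for the 13 genes with E2F letters and 1.52 for the 17 without, with ranges of 0.87 to 1.94 and 1.07 to 2.35, so the ranges overlapped.

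**Figure D1:**
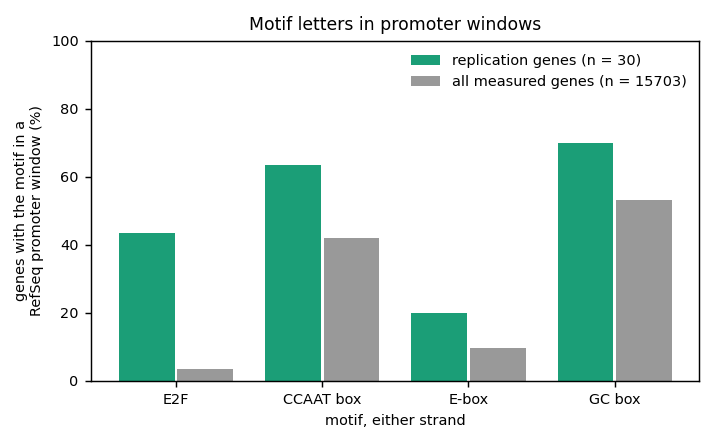
Share of genes (%) whose RefSeq promoter window holds each motif on either strand, for the 30 replication genes with a window and for the 15703 measured genes with one. The bars for the E2F letters stand at 43.3% and 3.48%, the widest gap in ratio among the 4 motifs.

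Values are log2 levels made by the authors with RMA, and differences between groups are log2 differences. Between the arrays of one group, r over genes was 0.997 to 0.998 apart from day 18, with 0.993, where 264 genes differed by more than 1 between the arrays, against 5 to 16 elsewhere. Over the replication genes the largest difference between the arrays of a group was 0.45, on day 5, and 0.30 on day 18. As a background, the 95th percentile of olfactory receptor genes, mostly silent outside the nose, was 5.30. All members lay above it in all groups except Gmnn, which lay under it on day 0. Fibroblast markers such as Col1a1 and Pdgfra had a mean level over 10 genes of 11.0 and 11.02 on the day 0 arrays, 6.40 and 6.40 (day 15), 8.50 and 7.54 (day 18) and 8.98 and 8.76 (iPSC). In iPSC all 10 were above background, but unevenly, with means of 11.53 for Col1a1 and 11.44 for Postn against 5.95 for Pdgfra and 6.05 for Lum. Pluripotency markers such as Nanog had a mean over 10 genes of 4.78 and 4.76 on day 0 and 10.96 and 10.93 in iPSC. Over 7 macrophage markers the mean was 7.64 and 7.48 on day 0 and 5.62 and 5.63 in iPSC, and over 8 epithelial and keratinocyte markers 5.54 and 5.61 on day 0, 9.99 and 10.02 (day 15) and 7.10 and 7.18 (iPSC). The iPSC arrays thus carried fibroblast transcripts beside the pluripotency genes, and the part of these in the iPSC values was not tested. Y-linked Eif2s3y had group means of 4.24 (day 0), 3.99 (day 15), 8.53 (day 18) and 6.25 (iPSC). The Y-linked gene Uty stood at 8.27 on day 5 and 5.29 on day 7. The levels of Y-linked genes thus differed between groups, and their part in the results was not tested.

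Replication genes rose on the first day of induction and stayed up through the course. On day 1, 33 of the 38 genes were called higher than on day 0 and 0 lower, where 7.62% of all genes were called higher and 6.54% lower. On the same day 6 of the 10 fibroblast markers were called lower and 0 higher, and their mean was 8.72 and 8.75 on the day 1 arrays against 11.0 and 11.02 on day 0, with 9 of 10 above background. The part of this in the members' rise was not tested. A call needed an adjusted p under 0.05, from limma with Benjamini-Hochberg adjustment over all genes, and a log2 difference of at least 1. The median difference was 1.43 over the members and 0.01 over all genes, with members from 0.87 to 2.35. The 5 without a call were Prim2 at 0.997, Gins3 at 0.97, Gins4 at 0.92, Pold1 at 0.92 and Rfc3 at 0.87. Each missed the fold limit only, with an adjusted p of at most 1.73e-07 in limma. All 38 passed by adjusted p alone on day 1, as they did in each later group. Of all genes, 27.8% (day 1), 34.5% (day 3), 36.0% (day 5), 32.9% (day 7), 33.0% (day 11), 32.3% (day 15), 28.7% (day 18) and 30.2% (iPSC) were higher by this rule. The mean level over the 38 genes was 7.91 and 7.84 on the day 0 arrays, 9.30 and 9.32 (day 1), 9.50 and 9.50 (day 7), 9.26 and 9.28 (day 15), 9.17 and 9.23 (day 18) and 9.60 and 9.62 (iPSC). Day 0 was the lowest group for all 38 genes, and iPSC the highest for 21, day 7 for 8, and days 1 and 11 for 3 each. The matching shares of all genes are not given here, so these counts only describe the members. In limma's F test over the 9 groups all 38 had an adjusted p under 0.05, as had 78.8% of all genes.

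**Figure D2:**
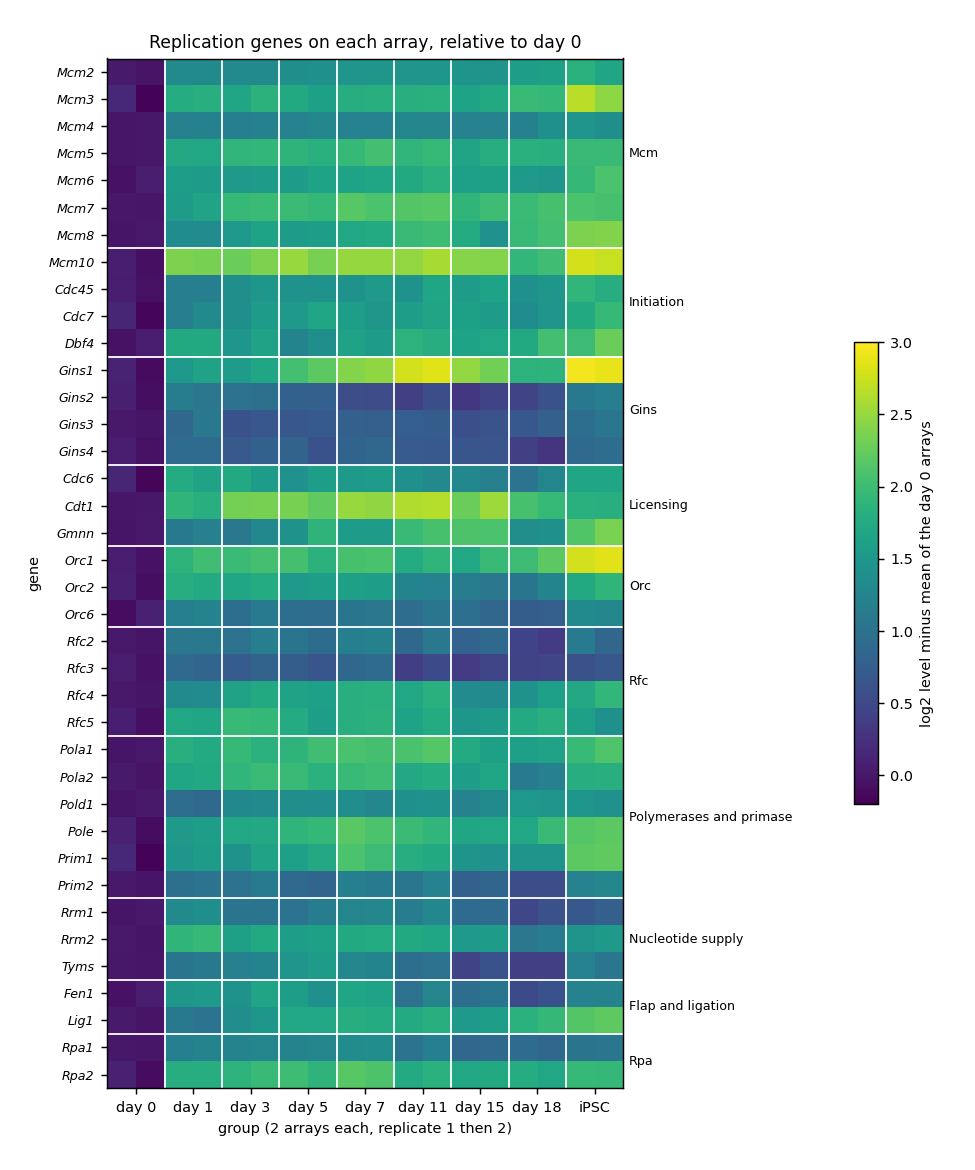
Level of each of the 38 replication genes (rows, by complex) on each of the 18 arrays (columns, 2 per group), as the log2 level minus the gene's mean on the day 0 arrays. Dark violet is the day 0 level and yellow a difference of about 3. Every row is darkest on day 0, and the rows of Gins1, Orc1 and Mcm10 reach the highest differences, in iPSC.

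Of the genes that mark and license origins, Orc1, the largest subunit of the origin recognition complex and one made in a cell cycle dependent way, moved most. Its arrays read 6.18 and 6.09 (day 0), 8.0 and 8.15 (day 1), 8.11 and 8.20 (day 3) and 8.19 and 7.99 (day 5). They then read 8.20 and 8.21 (day 7), 7.90 and 8.03 (day 11), 7.85 and 8.09 (day 15), 8.12 and 8.32 (day 18) and 8.92 and 8.99 (iPSC). Orc1 was 1.94 ± 0.10 (SE) higher on day 1 than on day 0, a 3.84-fold rise, and 2.82 higher in iPSC, where it stood above every other group. Orc2, a core subunit, rose by 1.78 on day 1 and had lower means on later days, from 9.71 and 9.67 on day 1 to 9.06 and 8.98 on day 15, with 9.66 and 9.81 in iPSC. Orc6, the smallest subunit, read 8.95 and 9.12 (day 0), 10.22 and 10.27 (day 1), 10.0 and 10.14 (day 3) and 9.99 and 9.97 (day 5). It then read 10.08 and 10.11 (day 7), 9.97 and 10.10 (day 11), 10.01 and 9.89 (day 15), 9.78 and 9.81 (day 18) and 10.35 and 10.31 (iPSC), with its lowest level after day 0 on day 18. It rose by 1.21 on day 1, the least of the 3 subunits, and was 1.30 higher in iPSC than on day 0.

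The loaders Cdc6 and Cdt1 and the inhibitor geminin ran differently after their shared rise. Cdc6 had nearly equal highest means on day 1 and in iPSC and read 6.55 and 6.26 (day 0), 8.17 and 8.05 (day 1), 8.15 and 7.96 (day 3) and 7.83 and 8.0 (day 5). It then read 7.94 and 7.97 (day 7), 7.81 and 7.71 (day 11), 7.70 and 7.59 (day 15), 7.43 and 7.67 (day 18) and 8.09 and 8.09 (iPSC). Cdt1 had its highest mean on day 11 and read 7.72 and 7.73 (day 0), 9.61 and 9.54 (day 1), 10.05 and 10.07 (day 3) and 10.07 and 9.94 (day 5). It then read 10.23 and 10.19 (day 7), 10.34 and 10.37 (day 11), 10.01 and 10.25 (day 15), 9.78 and 9.67 (day 18) and 9.55 and 9.53 (iPSC), so that both iPSC arrays lay under both day 15 arrays. Cdt1 was 1.85 ± 0.08 (SE) higher on day 1 than on day 0 and 1.82 higher in iPSC. Gmnn read 4.49 and 4.53 (day 0), 5.61 and 5.71 (day 1), 5.60 and 5.81 (day 3) and 5.94 and 6.39 (day 5). It went on to 6.07 and 6.08 (day 7), 6.48 and 6.58 (day 11), 6.62 and 6.60 (day 15), 5.90 and 5.92 (day 18) and 6.65 and 6.87 (iPSC). Its day 0 level was under background, so its log2 difference of 2.24 ± 0.12 (SE) between iPSC and day 0 is a lower bound. It was high on days 11 and 15 and in iPSC, and lower on day 18 than on both neighbours.

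Among the 6 subunits of the replicative helicase ring, Mcm2 to Mcm7, all were called higher than on day 0 on day 1 and in iPSC. The differences on day 1 ran from 1.20 for Mcm4 to 1.79 for Mcm3, and in iPSC from 1.43 for Mcm4 to 2.56 for Mcm3. Mcm4 read 8.64 and 8.66 (day 0), 9.85 and 9.86 (day 1), 9.84 and 9.86 (day 3) and 9.87 and 9.93 (day 5). It then read 9.87 and 9.87 (day 7), 9.92 and 9.91 (day 11), 9.88 and 9.88 (day 15), 9.86 and 10.06 (day 18) and 10.12 and 10.05 (iPSC). It was the flattest of the ring, with group means between 9.85 and 9.92 from day 1 to day 15. Mcm3 read 7.89 and 7.55 (day 0), 9.50 and 9.54 (day 1), 9.40 and 9.58 (day 3) and 9.47 and 9.34 (day 5). It went on to 9.52 and 9.53 (day 7), 9.52 and 9.55 (day 11), 9.37 and 9.47 (day 15), 9.68 and 9.65 (day 18) and 10.39 and 10.18 (iPSC), and its iPSC arrays lay above all others. Mcm7 read 8.95 and 8.93 (day 0), 10.50 and 10.61 (day 1), 10.88 and 10.93 (day 3) and 10.93 and 10.88 (day 5). It then read 11.11 and 11.03 (day 7), 11.09 and 11.11 (day 11), 10.84 and 10.95 (day 15), 10.93 and 11.01 (day 18) and 11.04 and 11.01 (iPSC), with its highest mean on day 11. Mcm5 was highest on day 7, at 10.72 and 10.82, and Mcm2 and Mcm6 in iPSC, at 11.03 and 10.88 and at 10.53 and 10.69. Mcm8, a relative of the ring that works with Mcm9 in repair by recombination, covered 56.7% of its difference between day 0 and iPSC by day 1. It read 6.46 and 6.49 (day 0), 7.84 and 7.82 (day 1), 7.98 and 8.13 (day 3) and 8.03 and 8.06 (day 5). It then read 8.19 and 8.23 (day 7), 8.44 and 8.48 (day 11), 8.25 and 7.89 (day 15), 8.43 and 8.52 (day 18) and 8.84 and 8.87 (iPSC), a later course than that of Mcm4, which had covered 83.9% by day 1.

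The activators of the helicase held both the largest and some of the smallest changes. Mcm10, which helps the helicase to start and binds polymerase alpha, read 6.94 and 6.80 (day 0), 9.24 and 9.21 (day 1), 9.15 and 9.24 (day 3) and 9.37 and 9.21 (day 5). It then read 9.37 and 9.37 (day 7), 9.35 and 9.45 (day 11), 9.28 and 9.28 (day 15), 8.79 and 8.88 (day 18) and 9.67 and 9.60 (iPSC). The rise on day 1 was 2.35 ± 0.07 (SE), a 5.11-fold change with adjusted p = 2.34e-11 in limma, and the day 18 arrays were the lowest after day 0. Gins1, a subunit of the tetramer that joins Cdc45 to the Mcm ring, rose from day 3 to day 11 and read 6.79 and 6.59 (day 0), 8.20 and 8.33 (day 1), 8.26 and 8.39 (day 3) and 8.74 and 8.89 (day 5). From day 7 it read 9.10 and 9.16 (day 7), 9.47 and 9.53 (day 11), 9.17 and 9.01 (day 15), 8.56 and 8.57 (day 18) and 9.63 and 9.58 (iPSC). It was 2.92 higher in iPSC than on day 0, a 7.57-fold difference and the largest of the members there, and had covered 54.0% of it by day 1. The other subunits of the same tetramer had other courses. Gins2 read 8.28 and 8.11 (day 0), 9.34 and 9.26 (day 1), 8.75 and 8.74 (day 7), 8.52 and 8.66 (day 15), 8.65 and 8.81 (day 18) and 9.28 and 9.36 (iPSC), with day 15 the lowest group after day 0. Gins4 read 9.19 and 9.07 (day 0), 10.04 and 10.05 (day 1), 9.82 and 9.92 (day 3) and 9.95 and 9.74 (day 5). It then read 9.95 and 10.01 (day 7), 9.85 and 9.82 (day 11), 9.78 and 9.77 (day 15), 9.53 and 9.42 (day 18) and 10.02 and 10.07 (iPSC), nearly the same on day 1 and in iPSC and lowest after day 0 on day 18. Gins3 read 7.17 and 7.12 (day 0), 8.01 and 8.22 (day 1), 7.74 and 7.82 (day 3) and 7.81 and 7.85 (day 5). It then read 7.93 and 7.91 (day 7), 7.90 and 7.88 (day 11), 7.72 and 7.76 (day 15), 7.83 and 7.93 (day 18) and 8.11 and 8.20 (iPSC). Gins3 and Gins4 were 0.97 and 0.92 higher on day 1, both without a call, and 1.01 and 0.92 higher in iPSC, where Gins3 alone of the pair was called. A second probe set of Gins1 ran with the one used at r = 0.999 over the 18 arrays.

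Cdc45, the third partner of the helicase, read 7.11 and 6.98 (day 0), 8.21 and 8.23 (day 1), 8.43 and 8.53 (day 3) and 8.47 and 8.48 (day 5). It then read 8.47 and 8.58 (day 7), 8.48 and 8.74 (day 11), 8.62 and 8.71 (day 15), 8.46 and 8.54 (day 18) and 8.95 and 8.84 (iPSC). Its rise of 1.17 on day 1 was the smallest of the activators in its list, and its mean was highest in iPSC and, of the induced days, on day 15. Cdc7, the kinase gene, read 6.82 and 6.53 (day 0), 7.84 and 8.0 (day 1), 8.07 and 8.24 (day 3) and 8.21 and 8.37 (day 5). It then read 8.27 and 8.17 (day 7), 8.26 and 8.35 (day 11), 8.29 and 8.23 (day 15), 8.03 and 8.14 (day 18) and 8.42 and 8.61 (iPSC). It rose by 1.25 on day 1 and its activator gene Dbf4 by 1.74. In iPSC they were 1.84 and 2.14 higher than on day 0, the highest means of both genes. Dbf4 read 7.98 and 8.09 (day 0), 9.77 and 9.78 (day 1), 9.52 and 9.67 (day 3) and 9.27 and 9.43 (day 5). It then read 9.68 and 9.60 (day 7), 9.90 and 9.82 (day 11), 9.69 and 9.75 (day 15), 9.78 and 10.08 (day 18) and 10.03 and 10.31 (iPSC). Its lowest mean after day 0 was that of day 5.

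All 6 genes of the polymerases and of primase lay above their day 0 level in every later group. Pola1, the catalytic subunit of polymerase alpha, and Pola2, its regulatory subunit, rose by 1.79 and 1.71 on day 1. Pola1 lies on the X chromosome, where the means of the X-inactivation transcript Xist were 5.01 on day 0, 7.42 on day 15 and 8.53 in iPSC. Pola1 read 7.07 and 7.10 (day 0), 8.90 and 8.85 (day 1), 9.02 and 8.92 (day 3) and 8.96 and 9.11 (day 5). It then read 9.17 and 9.14 (day 7), 9.17 and 9.24 (day 11), 8.84 and 8.71 (day 15), 8.69 and 8.73 (day 18) and 9.04 and 9.20 (iPSC). Its highest mean was that of day 11. Pola2 read 8.33 and 8.26 (day 0), 9.97 and 10.03 (day 1), 10.20 and 10.27 (day 3) and 10.26 and 10.14 (day 5). It then read 10.26 and 10.30 (day 7), 10.02 and 10.08 (day 11), 9.87 and 9.97 (day 15), 9.40 and 9.49 (day 18) and 10.09 and 10.11 (iPSC), lowest after day 0 on day 18. Pole, the catalytic subunit of the leading strand polymerase epsilon, was 1.55 higher on day 1 and 2.18 in iPSC. Pold1, that of polymerase delta, missed the fold limit on day 1 at 0.92 but was called from day 3 on, with 1.31 on day 3 and 1.45 in iPSC. Its arrays read 7.61 and 7.64 (day 0), 8.57 and 8.51 (day 1), 8.92 and 8.95 (day 3) and 9.01 and 9.0 (day 5). They then read 8.99 and 8.91 (day 7), 9.03 and 9.06 (day 11), 8.84 and 8.94 (day 15), 9.13 and 9.11 (day 18) and 9.10 and 9.04 (iPSC), which puts its highest mean on day 18. Of the primase genes, Prim1, the catalytic subunit, rose by 1.52 on day 1, while Prim2, the large subunit, stood at 0.997, just under the fold limit. Prim1 read 7.47 and 7.13 (day 0), 8.78 and 8.86 (day 1), 8.74 and 8.95 (day 3) and 8.90 and 9.03 (day 5). It then read 9.40 and 9.29 (day 7), 9.09 and 9.04 (day 11), 8.76 and 8.71 (day 15), 8.75 and 8.76 (day 18) and 9.49 and 9.52 (iPSC), high on day 7 and in iPSC. Prim2 read 8.68 and 8.65 (day 0), 9.64 and 9.68 (day 1), 9.67 and 9.77 (day 3) and 9.56 and 9.51 (day 5). It then read 9.85 and 9.77 (day 7), 9.72 and 9.88 (day 11), 9.44 and 9.50 (day 15), 9.23 and 9.23 (day 18) and 9.88 and 9.94 (iPSC), lowest after day 0 on day 18. In iPSC, Prim1 was 2.21 and Prim2 1.25 above day 0, the largest and the smallest difference of these 6 genes.

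Rfc2 to Rfc5, the small subunits of the loader of the clamp, split by gene. Rfc4 and Rfc5 were 1.34 and 1.70 higher on day 1 and 1.83 and 1.51 higher in iPSC. Rfc4 read 9.02 and 8.98 (day 0), 10.33 and 10.34 (day 1), 10.64 and 10.74 (day 3) and 10.65 and 10.61 (day 5). It then read 10.82 and 10.84 (day 7), 10.71 and 10.83 (day 11), 10.34 and 10.33 (day 15), 10.45 and 10.61 (day 18) and 10.73 and 10.92 (iPSC), nearly level on day 7 and in iPSC. Rfc5 read 9.48 and 9.34 (day 0), 11.11 and 11.10 (day 1), 11.36 and 11.34 (day 3) and 11.18 and 11.0 (day 5). It then read 11.22 and 11.26 (day 7), 11.06 and 11.17 (day 11), 10.91 and 10.95 (day 15), 11.16 and 11.23 (day 18) and 11.03 and 10.82 (iPSC), highest on day 3. Rfc2 was called on day 1, at 1.07, and missed the fold limit in iPSC at 0.99. Rfc3 read 7.52 and 7.44 (day 0), 8.38 and 8.32 (day 1), 8.21 and 8.30 (day 3) and 8.22 and 8.14 (day 5). It then read 8.35 and 8.40 (day 7), 7.87 and 8.0 (day 11), 7.83 and 7.94 (day 15), 7.93 and 7.95 (day 18) and 8.07 and 8.14 (iPSC). The arrays of days 1 to 7 lay above those of days 11 to 18. The iPSC arrays stood between, and 1 of them met a day 5 array at 8.14. Rfc3 had no call on any day, with 0.89 on day 7, 0.41 on day 15 and 0.63 in iPSC. The genes of replication protein A, which coats single-stranded DNA, were both called on day 1, Rpa1 at 1.21 and Rpa2 at 1.80. Rpa1 read 8.58 and 8.56 (day 0), 9.75 and 9.80 (day 1), 9.80 and 9.84 (day 3) and 9.80 and 9.83 (day 5). It then read 9.92 and 9.94 (day 7), 9.59 and 9.75 (day 11), 9.43 and 9.47 (day 15), 9.49 and 9.45 (day 18) and 9.60 and 9.62 (iPSC). Its highest mean was that of day 7, as was that of Rpa2. Rpa2 read 7.55 and 7.36 (day 0), 9.25 and 9.26 (day 1), 9.33 and 9.43 (day 3) and 9.47 and 9.34 (day 5). It then read 9.62 and 9.57 (day 7), 9.22 and 9.30 (day 11), 9.18 and 9.20 (day 15), 9.24 and 9.16 (day 18) and 9.40 and 9.38 (iPSC). In iPSC, Rpa1 was 1.04 and Rpa2 1.93 above day 0.

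The genes of nucleotide supply had their highest means on day 1 or day 5. Rrm1, the large subunit of ribonucleotide reductase, read 9.92 and 9.96 (day 0), 11.25 and 11.33 (day 1), 10.97 and 10.97 (day 3) and 10.96 and 11.09 (day 5). It then read 11.20 and 11.22 (day 7), 11.08 and 11.23 (day 11), 10.86 and 10.85 (day 15), 10.42 and 10.53 (day 18) and 10.62 and 10.71 (iPSC), with its highest mean on day 1 and both iPSC arrays under both arrays of every day from 1 to 15. Rrm1 was 1.35 ± 0.07 (SE) higher on day 1 than on day 0 and 0.73 in iPSC, without a call there. Rrm2, the small subunit, read 9.58 and 9.56 (day 0), 11.47 and 11.51 (day 1), 11.19 and 11.32 (day 3) and 11.17 and 11.19 (day 5). It then read 11.32 and 11.34 (day 7), 11.32 and 11.26 (day 11), 11.09 and 11.13 (day 15), 10.65 and 10.71 (day 18) and 11.03 and 11.10 (iPSC). Its rise of 1.92 on day 1 was the third largest of the members, and it was 1.50 above day 0 in iPSC. Tyms, which makes thymidylate, had its highest mean on day 5 and read 8.24 and 8.22 (day 0), 9.27 and 9.32 (day 1), 9.42 and 9.47 (day 3) and 9.69 and 9.79 (day 5). It then read 9.51 and 9.47 (day 7), 9.19 and 9.24 (day 11), 8.69 and 8.83 (day 15), 8.63 and 8.63 (day 18) and 9.44 and 9.29 (iPSC). Its day 15 and day 18 differences from day 0 were 0.53 and 0.40, without a call.

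The 2 genes that finish the lagging strand parted after day 7. Fen1, the nuclease that removes flaps, read 6.95 and 7.03 (day 0), 8.48 and 8.52 (day 1), 8.43 and 8.65 (day 3) and 8.57 and 8.39 (day 5). It then read 8.69 and 8.63 (day 7), 7.98 and 8.24 (day 11), 7.94 and 8.03 (day 15), 7.51 and 7.59 (day 18) and 8.21 and 8.22 (iPSC). Lig1, the ligase that seals the nicks, read 8.07 and 8.02 (day 0), 9.13 and 9.07 (day 1), 9.42 and 9.54 (day 3) and 9.75 and 9.76 (day 5). It went on to 9.84 and 9.81 (day 7), 9.80 and 9.85 (day 11), 9.57 and 9.64 (day 15), 9.89 and 9.98 (day 18) and 10.20 and 10.26 (iPSC). Fen1 was highest on day 7 and lowest after day 0 on day 18, while Lig1 was lowest of the induced days on day 1 and highest in iPSC. In iPSC they were 1.23 ± 0.10 and 2.18 ± 0.07 (SE) above day 0, and Lig1 had covered 48.4% of its difference by day 1.

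**Figure D3:**
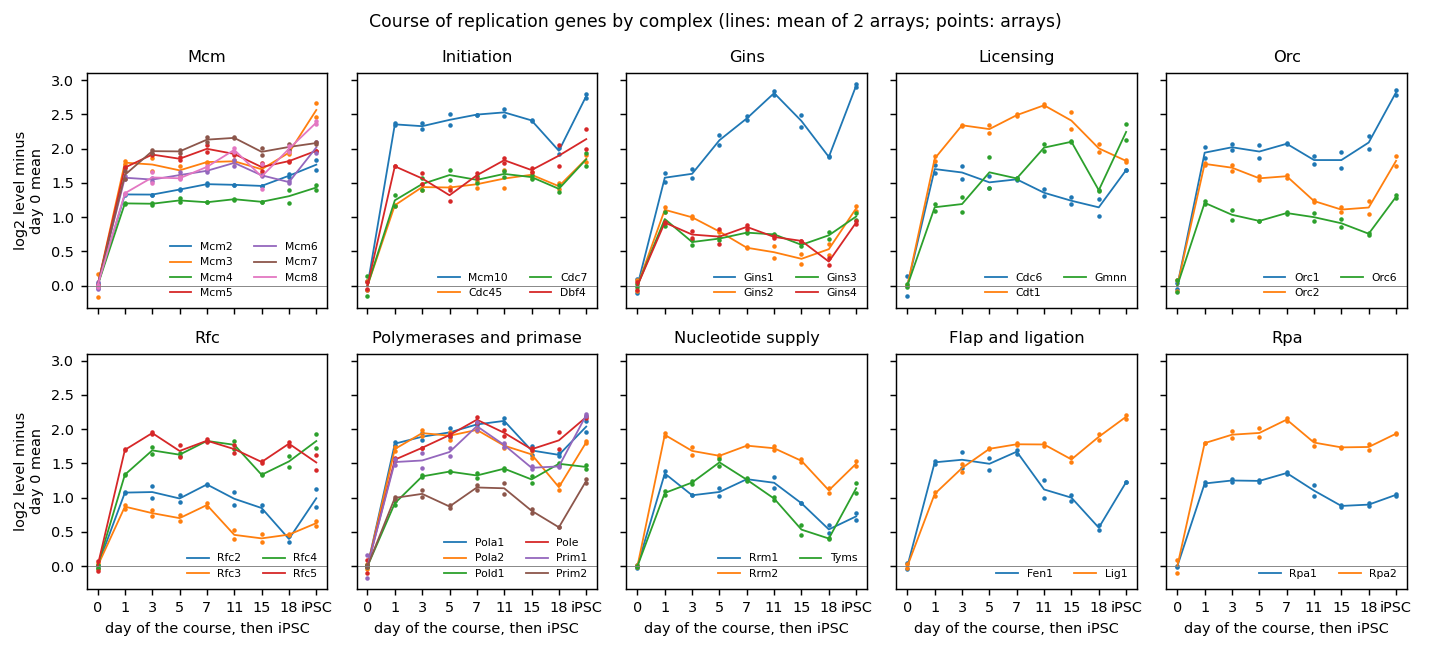
Course of the 38 replication genes in 10 panels by complex, as the log2 level minus the gene's day 0 mean (vertical axis) over the days and iPSC (horizontal axis, not to scale in time). Lines join the means of 2 arrays and points are arrays. The lines rise between day 0 and day 1 in all panels, and the panels of Gins, licensing and the lagging strand hold genes that part after it.

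Against day 0, the counts of members called higher were 34 (day 3), 31 (day 5), 34 (day 7), 31 (day 11), 27 (day 15), 27 (day 18) and 34 (iPSC), with 0 lower in each. The members without a call on day 18 were Fen1, Gins2, Gins3, Gins4, Orc6, Prim2, Rfc2, Rfc3, Rpa1, Rrm1 and Tyms. All genes were called higher in 8.68%, 9.50%, 10.1%, 9.89%, 10.0%, 8.87% and 10.1% of cases, in the same order. They were called lower in 8.94%, 9.75%, 9.85%, 9.64%, 8.83%, 8.64% and 9.79%. These comparisons share the day 0 arrays. Between neighbouring samples from day 1 to day 15 no member passed the fold limit (0 of 38 in each of 5 steps), where, in order, 3.03%, 1.15%, 1.02%, 3.05% and 1.91% of all genes did. With limma's adjusted p alone, 12 members differed in the step that ends on day 3, 4 in that of day 5, 4 in that of day 7, 9 in that of day 11 and 10 in that of day 15. Their directions follow below with the shares of all genes.

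The steps within the induced days were small and gene by gene. From day 1 to day 3, 9 members (23.7%) were higher by adjusted p alone, Cdt1 (0.49) and Pold1 (0.39) most. Gins3, Rrm1 and Rrm2 (7.89% of members) were lower. Of all genes, 16.8% were higher and 15.7% lower. From day 3 to day 5, Gins1, Tyms, Lig1 and Gmnn (10.5% of members) were higher and 0 members lower, against 7.57% and 7.19% of all genes. From day 5 to day 7, Gins1, Prim1 and Prim2 (7.89% of members) were higher and Tyms (2.63%) lower. Of all genes, 6.15% were higher and 5.86% lower. The share of higher members was thus not far from that of all genes, and the share of lower members was under it. Gins1 was thus higher at each of 3 steps, by 0.49, 0.32 and 0.37. From day 7 to day 11, 7 members (18.4%) were lower, Fen1 (-0.55) and Rfc3 (-0.43) most, and Gins1 and Gmnn (5.26%) higher. Of all genes, 13.0% were lower and 12.8% higher. The share of lower members was thus not far from that of all genes, and the share of higher members was under it. From day 11 to day 15, 10 members (26.3%) were lower and 0 higher, against 7.03% and 9.19% of all genes. Tyms (-0.45), Rfc4 (-0.44), Pola1 (-0.43) and Gins1 (-0.41) led them. The means of 36 of the 38 genes were lower on day 15 than on day 11, as were those of 58.7% of all genes. That count of 10 was 4 without replicate 2 of day 11, 6 without either day 15 array and 17 with each array centred on its median. The split of 9 higher and 3 lower on day 3 was 5 and 5 with arrays centred on the olfactory receptor genes. The 12 of day 3 were 5 without replicate 2 of day 1, and the 9 of day 11 were 5 without replicate 1 of day 7.

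After doxycycline and vitamin C were removed, no member passed the fold limit between day 15 and day 18 (0 of 38), where 4.67% of all genes were higher and 4.07% lower. The median difference of the members was 0.01 and that of all genes -0.06. By adjusted p alone in limma, 11 members were lower and 4 higher, against 27.0% and 19.7% of all genes, so the share of lower members was near that of all genes and the share of higher members under it. The lower ones were Gmnn (-0.71), Gins1 (-0.52), Pola2 (-0.48), Rfc2 (-0.45), Mcm10 (-0.44), Fen1 (-0.44), Rrm2 (-0.43), Cdt1 (-0.40), Rrm1 (-0.38), Gins4 (-0.30) and Prim2 (-0.24). Mcm8 (0.40), Lig1 (0.33), Rfc5 (0.27) and Pold1 (0.23) were higher. The spread behind these p-values is pooled over the 9 groups. Over all genes the day 18 arrays differed more from each other (SD of the difference 0.278) than those of other groups (0.134 to 0.174). Adjusted p-values that involve day 18 may thus be too small. With a further quantile normalization 14 were higher and 10 lower, and with arrays centred on the olfactory receptor genes 14 and 9. The shares of all genes under these settings are not given here. The comparison with all genes above thus covers the values as reported, and whether it holds under these settings was not tested. Beside these values 7 of the 10 fibroblast markers were called higher on day 18 than on day 15 and 0 lower, 8 of 10 pluripotency markers higher and 0 lower, 3 of 8 epithelial and keratinocyte markers lower and 0 higher, and of 7 macrophage markers 1 higher and 1 lower. Their part was not tested. Removal of the additives and the later day cannot be told apart in this comparison.

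In iPSC most replication genes stood somewhat higher than late in the course. Against day 15, 0 members passed the fold limit, where 5.52% of all genes were higher and 5.48% lower, and 28 of 38 were higher by limma's adjusted p alone, where 22.5% of all genes were. The members' median difference was 0.33 and that of all genes -0.02. Orc1 led at 0.99 ± 0.10 (SE), followed by Mcm3 (0.86), Mcm8 (0.79), Prim1 (0.77), Gins2 (0.74) and Orc2 (0.71). All 4 Gins genes, all 3 origin recognition genes, all 6 polymerase and primase genes and 6 of 7 Mcm genes were among the 28. The 2 lower members were Cdt1 (-0.59 ± 0.08, SE) and Rrm1 (-0.19 ± 0.07), lower on both iPSC arrays than on both day 15 arrays. They were lower by adjusted p alone, as were 24.1% of all genes. Beside these values, 8 of the 10 fibroblast markers were called higher in iPSC than on day 15 and 0 lower, 8 of 10 pluripotency markers higher and 0 lower, 6 of 8 epithelial and keratinocyte markers lower and 0 higher, and of 7 macrophage markers 0 higher and 1 lower. Their part was not tested. Gmnn, at 0.14 (adjusted p = 0.378 in limma), did not pass.

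Against day 18, 1 member passed the fold limit, Gins1 at 1.04 ± 0.09 (SE), where 1.57% of all genes were higher and 2.84% lower. It fell under the limit with a further quantile normalization, with arrays centred on the olfactory receptor genes and with the mean of its probe sets, each of which left 0 calls. By adjusted p alone 26 members were higher and 1 lower, against 22.3% and 14.9% of all genes. Gmnn (0.85), Mcm10 (0.80), Prim1 (0.75), Tyms (0.73) and Orc1 (0.73) followed Gins1, and Rfc5 (-0.27) was the lower one. Beside these values, 5 of the 10 fibroblast markers were called higher in iPSC than on day 18 and 1 lower, 5 of 8 epithelial and keratinocyte markers lower and 0 higher, 1 of 10 pluripotency markers higher and 1 lower, and of 7 macrophage markers 2 higher and 1 lower. Their part was not tested. The iPSC line differed from the course also in its 2 inhibitors and in its culture, and the effects of these cannot be told apart. The means of 35 members were higher in iPSC than on day 18, as were 58.7% of those of all genes.

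**Figure D4:**
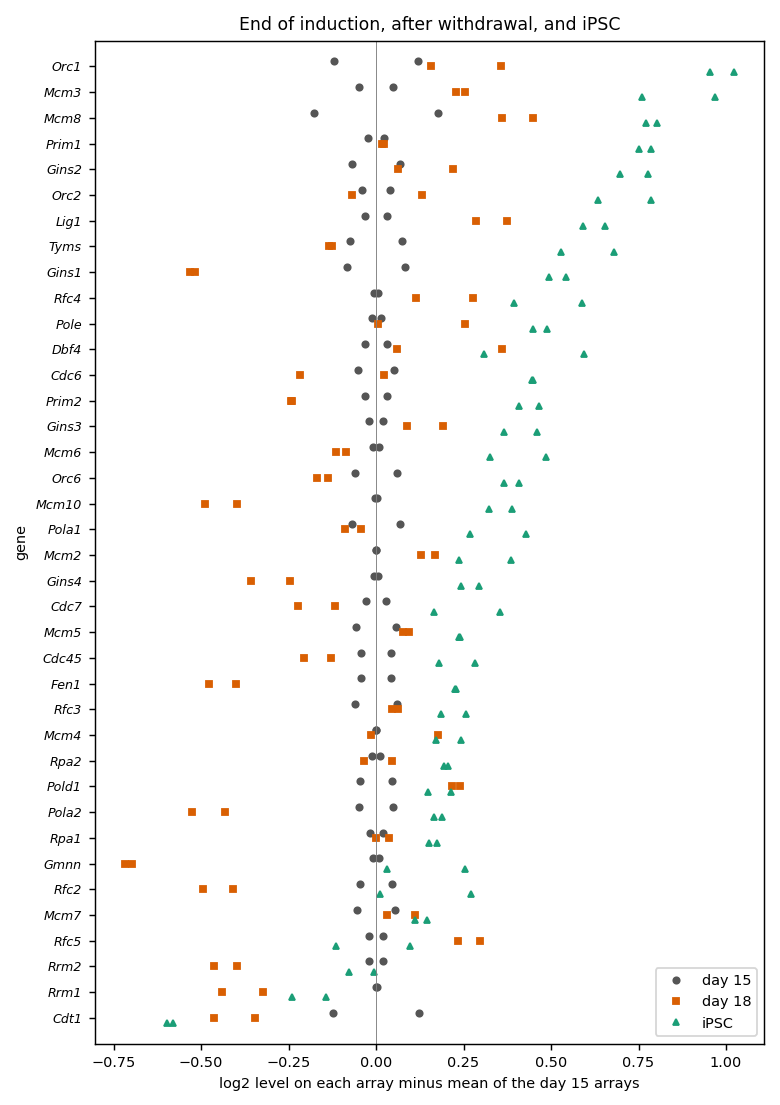
Level of each replication gene on the arrays of day 15, day 18 and iPSC, as the log2 level minus the mean of the day 15 arrays, with genes ordered by their iPSC difference. The iPSC points lie to the right of the day 15 points for most genes and to the left for Cdt1 and Rrm1, and the day 18 points of Gmnn and Gins1 lie farthest to the left.

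Other genes of the pathway, 69 in 5 lists, were higher than on day 0 in about as many cases on day 1 as in iPSC. On day 1, 38 of the 69 were called higher and 1 lower, and in iPSC 35 higher and 0 lower than on day 0, with medians of 1.09 and 1.0. Of all genes, 7.62% were called higher and 6.54% lower on day 1, and 10.1% and 9.79% in iPSC, and the counts of the 5 lists stand against these shares. Of 13 further subunits of the same complexes, 6 were higher and 1 lower on day 1 and 7 higher in iPSC. Orc5 stood at 2.03, the polymerase subunits Pole2 and Pold2 at 1.78 and 1.55, and Rpa3 at 1.52 in iPSC. The gene called lower on day 1 was Pold4, the smallest subunit of polymerase delta, at -1.25, named after its value was seen, and it stood at -0.57 in iPSC. Of 19 fork and checkpoint genes 14 were higher on day 1 and 15 in iPSC, led there by the nuclease and helicase gene Dna2 (3.07), the initiation factor Ticrr (2.55) and the checkpoint kinase Chek1 (2.34). Of 8 other genes of nucleotide supply or breakdown 6 were higher on day 1 and 3 in iPSC. The difference of the pyrimidine synthesis gene Umps was 2.55 on day 1 and 1.34 in iPSC. In the same order the dUTPase Dut stood at 1.24 and 1.34, and the kinase Dck at 1.50 and 0.95, where the iPSC value had no call.

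Of 10 genes that copy chromatin or its methylation behind the fork, 7 were higher on day 1 and 5 in iPSC. Hells, a remodeller, stood at 2.58 in iPSC, the histone chaperones Nasp and Chaf1b at 2.25 and 2.04, and Uhrf1, which guides Dnmt1 to new DNA, at 1.86. The list of E2F factors and G1 to S regulators had the smallest share of calls of the 5 lists on day 1, with 5 of 19 higher on day 1 and 5 in iPSC and medians of 0.70 and 0.51. Those with the largest differences in iPSC were Fbxo5, an inhibitor of the anaphase-promoting complex, at 2.38, E2f5 at 1.37, the S phase cyclin Ccna2 at 1.31 and the phosphatase Cdc25a at 1.29. Others of the list had lower means in iPSC than on day 0, without a call: E2f6 (-0.98), Rbl2 (-0.90) and E2f3 (-0.17). They were named after their values were seen. E2f1 stood at 0.59, also without a call.

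The 38 courses shared the rise from day 0, while some parted after it. Over the 9 group means, 36 of them correlated at r above 0.8 with the mean course of the other members, and the lowest r was 0.725, that of Gins2. The share of all genes above this r is not given here. Outside the members and the pathway lists, the 10 genes whose course was most like theirs, among 8517 genes with a range of at least 1, were Dkc1, Vrk1, Hus1, Cct7, Stip1, Cse1l, Smpd4, Cnot9, Siah1b and Cdca7, at r = 0.988 to 0.994. Dkc1, the pseudouridine synthase of the nucleolus and of telomerase, had means of 7.66 on day 0, 9.82 on day 1 and 10.23 in iPSC. These points share arrays and the step from day 0 to day 1, so the values only describe how alike the courses are.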

How the data were processed

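RNA from 9 groups of 2 samples was measured on 1-colour expression arrays, 18 in all. The deposited values are log2 levels per RefSeq probe set. The authors used RMA, as the submitters' processing notes state, and its version and the genome build were not given there. RMA draws arrays to a common distribution and compresses low levels, so differences of dim genes are understated. Of 29643 probe sets, 27260 matched 1 RefSeq symbol and 2383 none, giving 20233 genes, each read by its probe set with the highest mean. Of the 38 replication genes, 12 had several probe sets. Groups came from the labels. A model of 9 group means was fitted with limma 3.58.1 in R 4.3.3, with 9 residual degrees of freedom, and p-values were adjusted by Benjamini-Hochberg over all genes in each comparison. The script was tested on simulated data. Promoter letters came from RefSeq, GRCm38.p6. Alternatives changed the normalization, scaling, probe set choice, filter, samples, spread estimate, array weights, block, fold limit and arrays. All members were named, with values on every array for the extremes of each complex. Of each pathway list the 4 genes with the largest absolute difference between iPSC and day 0 were named, apart from items not reported here, and of other genes the 10 with the most similar course. Members and lists were chosen with earlier results of these data known. The number of arrays limits the precision.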

Additional observations from a re-analysis of the deposited data

How the results depend on the processing

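For day 1 and iPSC against day 0, the comparisons in which single members were recomputed, 0 of 988 differences reversed, and 19 changed sides of the fold limit, all near it (Gins2, Gins3, Rfc2, Tyms, Lig1, Rpa1 and Prim2). The counts called higher on day 1 ran from 29 to 38 over 10 settings and from 33 to 35 with 1 array left out, and those in iPSC from 32 to 38 and from 33 to 35. With no minimum log2 difference, 12 members differed from day 1 to day 3, 4 from day 3 to day 5, 4 from day 5 to day 7, 9 from day 7 to day 11, 10 from day 11 to day 15, 15 from day 15 to day 18, 27 between day 18 and iPSC and 30 between day 15 and iPSC. The 1 call between iPSC and day 18 became 0 with further quantile normalization, centring on olfactory receptor genes and the mean of all probe sets. The 0 calls between iPSC and day 15 became 1 under the first 2 of these, and ran from 0 to 1 with 1 array left out (1 without day 15 replicate 2 or iPSC replicate 1). By adjusted p alone, in counts added after the data were seen, day 18 against day 15 gave 24 with further quantile normalization and 23 with olfactory centring (15 as reported). Day 15 against day 11 gave 17 with median centring, 6 with only the 2 groups compared and 16 with a trended, robust spread (10 as reported). With 1 array left out these counts ran from 5 to 8 for day 3 against day 1, 5 to 6 for day 11 against day 7, 4 to 8 for day 15 against day 11, 13 to 19 for day 18 against day 15, 24 to 29 for iPSC against day 18 and 22 to 25 for iPSC against day 15. The lone array left was then assumed to vary like the other groups. The causes were not tested. The shares of all genes for the counts as reported stand with each comparison above. Those under the other settings are not given here, so a shift there cannot be read as particular to the members. Olfactory centring moved the median of all genes between day 18 and day 0 from -0.03 to 0.10, where the members' median was 1.58 (1.45 as reported). The members' median from day 15 to day 18 was 0.01 as reported, -0.02 with median centring, 0.13 with further quantile normalization and 0.12 with olfactory centring, so its sign was not settled. Replicate numbers were shared between groups, and deviations of same-numbered arrays correlated over 36 group pairs at -0.19 to 0.15 (median 0.02). Days 0, 5, 7 and 18 correlated positively with one another (0.06 to 0.15), as did days 1, 3 and 11 (0.06 to 0.15). Pairs across these 2 sets were negative (-0.19 to -0.01). The sets were drawn up after the signs were seen, and whether signs at random would give them was not tested. Day 15 and iPSC belonged to neither set. The iPSC deviations correlated at 0.13 with day 18, 0.08 with day 3 and -0.05 with day 7. Those of day 15 correlated at -0.12 with day 5, 0.02 with day 7 and 0.08 with day 11. The numbers thus did not pair the arrays in 1 direction, and a pairing under other numbers was not tested. With the replicate number as a block the counts of calls were 33 on day 1, 34 in iPSC and, by adjusted p alone, 17 for day 18 against day 15 and 28 for iPSC against day 15, none of them moved by more than 1.5 times. With 2 arrays a group, differences near the median standard error of 0.0976 were not detectable.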
